A study of Mus musculus with 30 samples.

Results

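The 7 genes described here encode the enzymes that place new methyl groups on cytosine in DNA, with their cofactor, and the enzymes that take those groups off again: Dnmt3a, Dnmt3b, Dnmt3l, Tet1, Tet2, Tet3 and Tdg. They were taken by name from the 55401 genes of the deposited tables, and all 7 were found in each of the 4 tables. The tables hold read counts of nuclear RNA from 30 libraries of mouse embryonic stem cells (mESC), with 15 conditions of 2 libraries. CGR8 is the parental mESC line, without a degron, and was left untreated or given 500 µM indole-3-acetic acid (IAA, the auxin that triggers the degron) for 4 h. SYAT cells derive from 1 CGR8 clone in which both alleles of Srcap carry YPet and an auxin-inducible degron, and they also express the plant F-box protein OsTir1 from a lentivirus driven by the EF1a promoter. In them IAA degrades SRCAP, the ATPase of the complex that places the histone variant H2A.Z in chromatin. SYAT cells are kept in auxinole, an inhibitor of OsTir1, and the time course holds such controls and 4 times of 500 µM IAA, at 2, 4, 6 and 8 h. A second table holds SYAT cells sorted from early G1 (EG1) and late G1 (LG1) phase by a mitotic degron reporter and DNA content, as controls or after 1 h of IAA. The fourth table holds SYAT cells that also carry a doxycycline-inducible, mCherry-tagged SRCAP, either wild type (wtSRCAP) or catalytically dead (cdSRCAP), all given 1 µg/mL doxycycline for 24 h, without IAA or with IAA for 4 h. Each of these lines is 1 clone sorted for mCherry, so the clone and the construct cannot be told apart. All cells had been moved from an inhibitor medium with LIF into serum with LIF before the experiments.

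DNMT3A and DNMT3B methylate cytosines, mostly in CG dinucleotides, that carried no methyl group before, and DNMT3L, which has no catalytic activity of its own, binds and stimulates them. TET1, TET2 and TET3 oxidise 5-methylcytosine in steps, and the thymine DNA glycosylase TDG cuts out the last oxidised forms so that base excision repair can put an unmodified cytosine back. In mESC both sides run at the same time, and DNA methylation is low in inhibitor medium and rises in serum. The study asked how loss of SRCAP, and with it of new H2A.Z deposition, changes transcription, and H2A.Z and DNA methylation have been described as mutually exclusive marks.

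On the mm10 (GRCm38) genome, Dnmt3a (ENSMUSG00000020661.15) lies at chr12:3806007-3914443 on the plus strand and Dnmt3b (ENSMUSG00000027478.15) at chr2:153649450-153687730 on the plus strand. Chromosome 10 holds 3 of the genes: Dnmt3l (ENSMUSG00000000730.13) at chr10:78041947-78063622 and Tdg (ENSMUSG00000034674.18) at chr10:82629828-82650799, both on the plus strand, and Tet1 (ENSMUSG00000047146.17) at chr10:62804570-62908996 on the minus strand. Tet2 (ENSMUSG00000040943.12) lies at chr3:133463679-133545139 and Tet3 (ENSMUSG00000034832.15) at chr6:83362373-83459084, both on the minus strand. Antisense genes overlap 6 of the 7 (Dnmt3aos, Dnmt3bos, Aire over Dnmt3l, Gm42567 over Tet2, B230319C09Rik over Tet3 and Glt8d2 over Tdg), and same-strand genes lie within Tet1 and Tet3. The library kit marks the strand, but the strand setting of the counting is not given in the sources used here, so reads of such partners may not be separated. The near copies were almost silent: the germline paralog Dnmt3c had 0 to 43 exon counts a library and Tdg-ps 5 to 88.

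DNA methylation acts on CG dinucleotides, and the promoters of the family differ widely in how many they hold. Printed here are 3 windows of 250 bases before a RefSeq transcription start (GRCm38.p6), of Tet2, Dnmt3b and Dnmt3l. Tet2 is the gene with the largest exon estimates below. For each gene the first start by position whose window overlaps no exon was taken. The windows run from many CG in Tet2 to few in Dnmt3l. They are written 5′ to 3′ on the gene's strand, with each CG in capitals.
Tet2, chr3:133544391-133544640, minus strand: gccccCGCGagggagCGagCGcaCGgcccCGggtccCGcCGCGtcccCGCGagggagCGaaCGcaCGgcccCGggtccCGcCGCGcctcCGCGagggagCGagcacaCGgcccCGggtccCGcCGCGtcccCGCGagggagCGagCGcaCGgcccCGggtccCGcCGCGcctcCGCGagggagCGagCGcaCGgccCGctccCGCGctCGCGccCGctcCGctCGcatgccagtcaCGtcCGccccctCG
Dnmt3b, chr2:153649199-153649448, plus strand: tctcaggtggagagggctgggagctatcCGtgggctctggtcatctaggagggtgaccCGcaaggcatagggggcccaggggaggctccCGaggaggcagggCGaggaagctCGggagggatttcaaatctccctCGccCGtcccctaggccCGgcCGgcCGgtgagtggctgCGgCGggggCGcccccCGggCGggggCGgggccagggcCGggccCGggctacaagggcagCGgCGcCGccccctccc
Dnmt3l, start 2 of 3, chr10:78049592-78049841, plus strand: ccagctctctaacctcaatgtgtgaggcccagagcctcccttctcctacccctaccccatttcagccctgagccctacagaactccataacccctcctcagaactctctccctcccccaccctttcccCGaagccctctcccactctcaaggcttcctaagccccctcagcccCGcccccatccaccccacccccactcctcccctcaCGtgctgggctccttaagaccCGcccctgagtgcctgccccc

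The Tet2 window held 51 CG, and 0.067% of all 32851 RefSeq promoter windows held as many or more. Its GC content was 83.6%, and a run of 22 bases recurred in it at least 4 times. The Dnmt3b window held 21 CG (16.3% of windows held as many or more) and the Dnmt3l window 4 (62.2%), against a median of 6 over all windows. The first 2 of the 3 Dnmt3a starts were also rich in CG, with 38 and 40, and the third held 15. Tdg had 19, Tet3 17 and Tet1 15 CG, and the other 2 Dnmt3l starts 5 and 3. None of the windows held the letters TATAAA on either strand, which 12.4% of all windows did. GGGCGG stood on either strand in windows of every member but Tdg, with 5 and 4 in the CG-rich Dnmt3a windows and 3 in that of Dnmt3b, and in 32.7% of all windows. A CCAAT stood once each in the Tet3 and Tdg windows, and in 33.8% of all windows. These letters are a description of the sequence.

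Srcap itself was measured first. IAA removes the protein and not the mRNA, and the Srcap exon level was 21.5 and 24.2 CPM (counts scaled to the library's total) in the CGR8 controls and 21.5 and 21.3 CPM after IAA, 39.9 to 60.2 CPM over the SYAT time course, 50.2 to 60.0 CPM in the sorted cells and 48.9 to 74.5 CPM in the wtSRCAP and cdSRCAP cells, where reads of the construct were not separated from those of the endogenous gene. The counts therefore do not check the degradation. Markers fitted the label of mESC. Pou5f1 lay between 317 and 1040 CPM and Sox2 between 254 and 480 CPM over the 4 tables. Other mESC markers were lower in the SYAT time course than in CGR8. Nanog had 42.5 to 114 against 231 to 383 CPM, Klf4 19 to 43.9 against 140 to 173 and Esrrb 66.7 to 128 against 303 to 365. The 4 markers of the formative state, the step after naive pluripotency, summed to 366 to 426 CPM in SYAT controls and 96.5 to 105 CPM in CGR8 controls. These differences between tables were not tested. The 9 markers of endoderm, mesoderm, trophoblast and fibroblasts summed to 5.86 to 56.1 CPM. Among these the fibroblast gene Dcn was at 0 in 8 libraries, while Col1a1 was at 0 in none and reached 31.6 CPM in sorted cells. Exon counts summed to between 12236493 and 60214521 a library, deepest in CGR8 (45617992 to 60214521). Replicate 2 of SYAT IAA 6 h stood apart from the other time course libraries, and values that rest on it are given with and without it. The intron columns did not hold the same thing in every table. Among genes annotated with only 1 exon, 51.9 to 52.2% had intron counts in SYAT and 46 to 46.2% in EG1, but at most 0.1% in CGR8, LG1, wtSRCAP and cdSRCAP. Exon columns were therefore used throughout, and intron values are given beside them within groups that share this property. The exception is LG1 against EG1, where the intron columns differ in it.

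The family spans a wide range of levels. In RPKM (CPM per kilobase of exon), Dnmt3b, Dnmt3l and Tet1 were the high genes in every condition, Dnmt3a was mostly intermediate, and Tet3 and Tdg were low. In CGR8 controls Dnmt3l led with 199 ± 31.7 RPKM (SD, n = 2, as for all levels here), followed by Dnmt3b with 130 ± 3.01, Tet1 with 59.7 ± 15.5, Dnmt3a with 15.3 ± 0.844, Tet2 with 9.99 ± 3.12, Tdg with 8.95 ± 1.08 and Tet3 with 2.47 ± 0.332 RPKM. Of these neighbours, Tet2 and Tdg lay within their SDs. In SYAT controls Dnmt3b led instead, with 259 ± 20 RPKM against 90.7 ± 23 for Dnmt3l, and Tet2 stood last with 3.8 ± 1.93. Its neighbour Tet3 (4.54 ± 0.996) lay within these SDs, as Tet1 (55.7 ± 15.7) did with Dnmt3l. The sorted cells had the same first 5 genes in the same order, with Dnmt3b at 91.2 ± 51.4 RPKM in EG1 controls, within the SD of Dnmt3l (57.7 ± 4.26). The lines with SRCAP constructs had Dnmt3l first again, with Dnmt3b, Tet1, Dnmt3a and Tet2 next in wtSRCAP cells. There the first 3 overlapped within SDs in controls (125 ± 49.9, 105 ± 36.6 and 88.4 ± 15.9 RPKM). In cdSRCAP controls Tet1 (108 ± 13.8 RPKM) stood above Dnmt3b (68.3 ± 7.76) and Tet2 (14.2 ± 0.269) above Dnmt3a (9.09 ± 1.5), while Dnmt3l (113 ± 46.1) and Tet1 did not differ beyond their SDs. The tables were normalised separately, so no test was made between them.

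**Figure D1:**
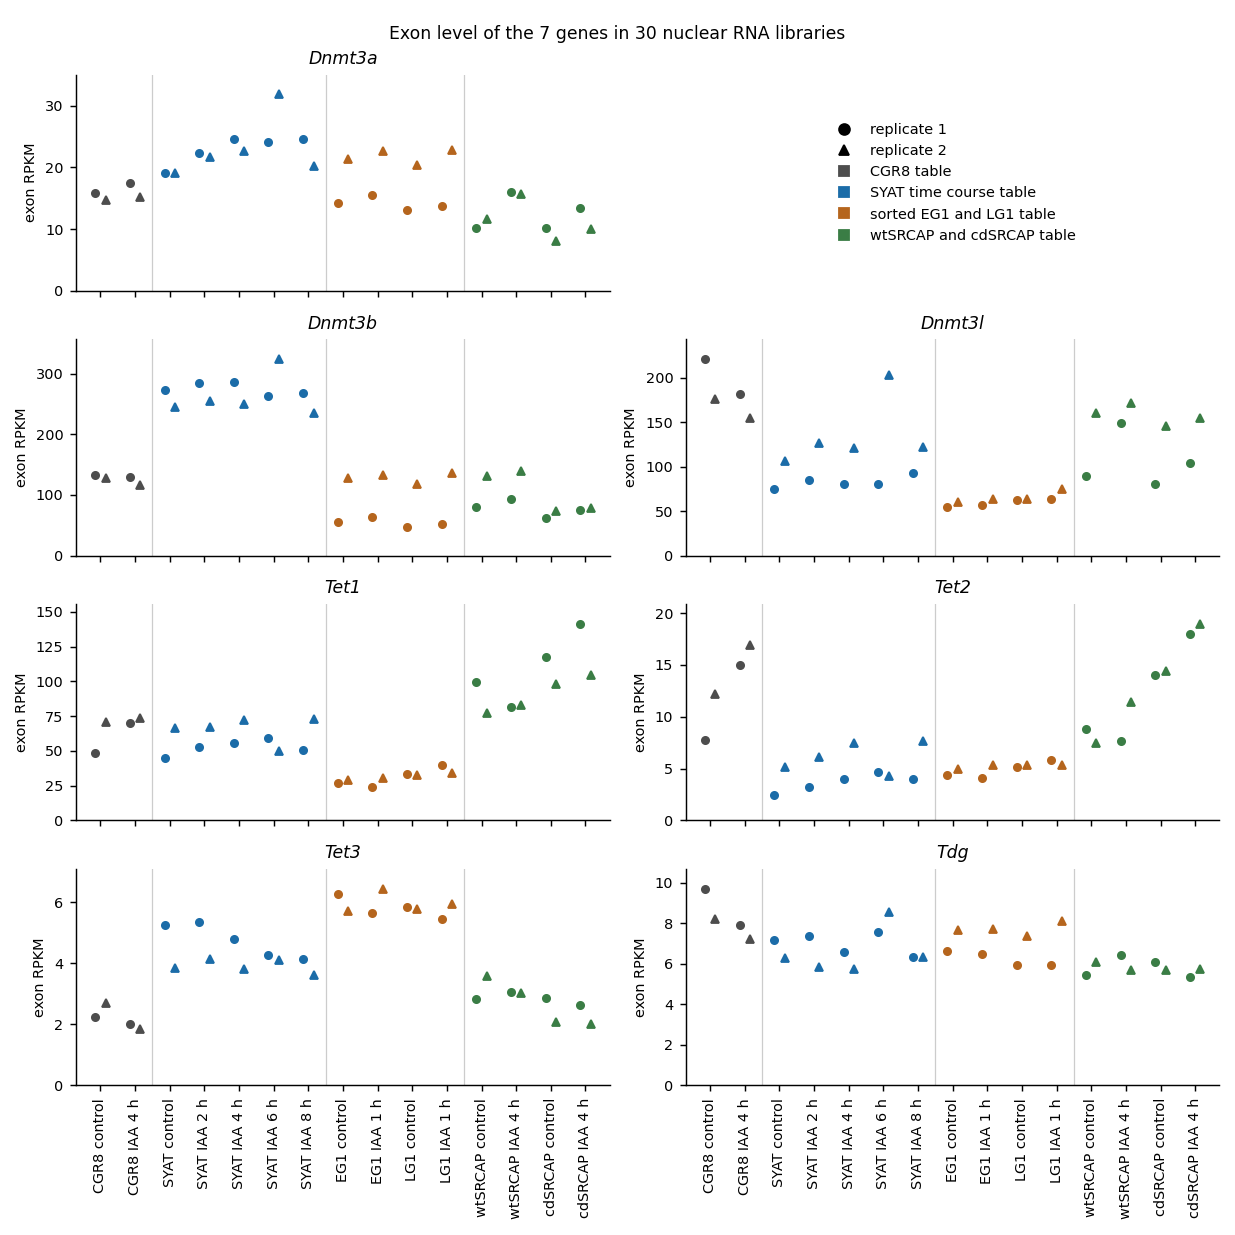
Exon level (RPKM, linear axis from 0) of each of the 7 genes in all 30 libraries, by condition; circles are replicate 1, triangles replicate 2, colours the 4 tables. Tet2 is highest in cdSRCAP cells after IAA and lowest in SYAT control replicate 1, while Dnmt3b and Dnmt3a in sorted cells split by replicate number.

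No member passed the threshold in exon counts in any of the 15 comparisons. A call needed an adjusted p under 0.05 and an absolute log2 fold change over 0.5 in edgeR's quasi-likelihood test with Benjamini-Hochberg adjustment over all genes tested. The share of all genes called was as low: 0.00988% of 20250 genes in CGR8, 0, 0, 0.0677 and 0.00521% of 19205 genes at 2, 4, 6 and 8 h in SYAT, 0% of 21020 genes in each of the 5 comparisons of sorted cells, and 0.00523% of 19111 genes for IAA in wtSRCAP cells, 0% for IAA in cdSRCAP cells, 0% for cdSRCAP against wtSRCAP controls, 0.00523% for the same after IAA and 0% for the difference of the IAA responses. At an unadjusted p under 0.05 the member counts were 1 of 7 in CGR8 (Tet2, beside 9.16% of all genes), 1 at 6 h in SYAT (Dnmt3a, 16.1%), 1 for LG1 against EG1 after IAA (Tet1, 2.31%), 1 for IAA in wtSRCAP (Dnmt3a, 7.4%), 1 for cdSRCAP against wtSRCAP controls (Tet2, 3.82%), and 2 for the same after IAA (Tet1 and Tet2, 5.03%). It was 0 at 2, 4 and 8 h in SYAT (3.92, 9.09 and 13.6% of all genes), for IAA in EG1 and LG1 (1.22 and 1.02%) and the difference of these responses (0.699%), for LG1 against EG1 controls (1.44%), for IAA in cdSRCAP (5.64%) and for the difference of the responses in cdSRCAP and wtSRCAP cells (0.785%). DESeq2 called 1 member in 1 comparison, Tet2 in CGR8. In sorted cells and in the SRCAP construct lines samples with the same replicate number deviated together, and a fit with the replicate number as a block called more genes. It called no member in sorted cells, beside 0.00951 and 0.00476% of all genes for IAA in EG1 and LG1, 0% for the difference of the responses, and 0.723 and 1.01% for LG1 against EG1 in controls and after IAA. In the construct lines it called no member for IAA in wtSRCAP (3.2%) or cdSRCAP (1.81%) or for the difference of the responses (0%), Tet2 for cdSRCAP against wtSRCAP controls (0.91% of all genes called) and Tet1 and Tet2 after IAA (1.41%).

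**Figure D2:**
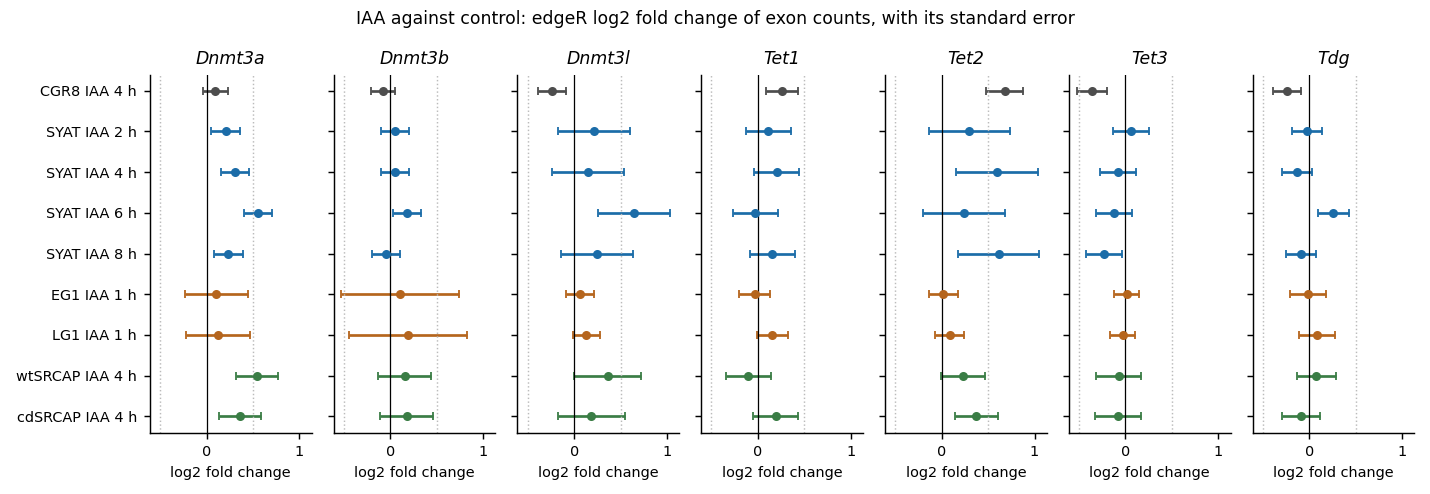
Log2 fold change of exon counts after IAA against control for each gene in 9 comparisons, from edgeR without the block; bars are standard errors, dotted lines mark 0.5 in either direction, and the SYAT time points share their 2 control libraries. The estimates farthest from 0 are those of Tet2 in CGR8 (0.68), Dnmt3l and Dnmt3a at 6 h in SYAT (0.65 and 0.55) and Tet2 at 4 and 8 h in SYAT (0.60 and 0.61), and none passed the threshold.

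Dnmt3a, a de novo methyltransferase, was measured at 316.7 and 318.1 CPM in the 2 SYAT controls. With IAA it was at 372.1 and 359.5 CPM at 2 h, 408.3 and 376.1 CPM at 4 h, 402.3 and 529.9 CPM at 6 h, then 409.0 and 337.5 CPM at 8 h. All 8 treated libraries lay above both controls, and since the 4 times share these controls they are not 4 separate results. Here and below, groups that lie apart or do not overlap are a description of the values. The share of all genes that do so was not counted. The log2 fold changes were 0.20, 0.31, 0.55 and 0.23 (SE 0.154 each), and the adjusted p of edgeR's quasi-likelihood test was 0.136 at 6 h, where it was lowest. The value at 6 h leaned on replicate 2: without it the log2 fold change was 0.35 (adjusted p = 0.314 in edgeR's test), and without replicate 1 it was 0.75 (adjusted p = 0.0071). The intron column, which in SYAT also holds counts of single-exon genes, gave 173.8 and 191.8 CPM in controls and 244.3 and 433.0 CPM at 6 h. That is a log2 fold change of 0.89 (SE 0.262, edgeR adjusted p = 0.199, beside 0.0136% of 14719 genes called, and DESeq2 adjusted p = 0.0424). It leaned on the same library, with 0.42 (edgeR adjusted p = 0.46) without replicate 2 at 6 h and 1.24 (adjusted p = 0.0206) without replicate 1.

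In wtSRCAP cells Dnmt3a was at 168.4 and 193.6 CPM in controls and 265.0 and 260.9 CPM after IAA, and the groups did not overlap. The log2 fold change was 0.54 (SE 0.227, edgeR adjusted p = 0.666), and with the replicate block it was 0.53 (adjusted p = 0.0524), beside 3.2% of all genes called in that fit. In cdSRCAP cells the level went from 168.9 and 133.7 CPM to 223.4 and 166.4 CPM, and these groups overlapped. The log2 fold change there was 0.37 (edgeR adjusted p = 0.981, 0.248 with the block), and the difference between the 2 responses was -0.17 (SE 0.32, adjusted p = 1). In CGR8, which has no degron, Dnmt3a was at 264.2 and 244.3 CPM before and 290.8 and 252.4 CPM after IAA, a log2 fold change of 0.10 (SE 0.133). In sorted cells it split by the replicate number: replicate 1 libraries had 217 to 259 CPM and replicate 2 libraries 340 to 379 CPM. IAA for 1 h gave log2 fold changes of 0.11 in EG1 and 0.12 in LG1 (edgeR adjusted p = 0.694 and 0.794 with the block).

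Dnmt3b, the other de novo methyltransferase and the most abundant member in SYAT, had IAA estimates close to 0. In CGR8 it was at 676.3 and 654.6 CPM in controls and 664.9 and 595.8 CPM after IAA, a log2 fold change of -0.08 (SE 0.125). Over the SYAT time course it lay between 1200 and 1660 CPM, with log2 fold changes of 0.05, 0.05, 0.18 and -0.04 (SE 0.151 each). The highest of these libraries was again replicate 2 at 6 h, and without it the estimate at 6 h was 0.02. In sorted cells replicate 2 held 2.08 to 2.63 times the Dnmt3b level of replicate 1 in every condition, with 238 to 326 CPM in replicate 1 and 603 to 694 CPM in replicate 2. Markers of the formative state, the step after naive pluripotency, spread in the same table from 102 to 299 summed CPM. Their part in the Dnmt3b spread was not tested, and in bulk RNA fewer cells of a type and less RNA per cell cannot be told apart.

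Between the construct lines the Dnmt3b level of every cdSRCAP library was below that of every wtSRCAP library. It was 405.3 and 669.7 CPM in wtSRCAP controls and 320.8 and 376.8 CPM in cdSRCAP controls, and after IAA 479.0 and 716.1 against 385.9 and 401.5 CPM. The cdSRCAP to wtSRCAP ratio within a replicate number was 0.791 and 0.563 in controls and 0.806 and 0.561 after IAA. The log2 fold changes were -0.62 (SE 0.29) and -0.60 (SE 0.29), with edgeR adjusted p of 1 and 0.951. With the replicate block they were -0.59 and -0.57 (adjusted p = 0.0614 and 0.0629), short of the threshold. IAA itself gave 0.15 in wtSRCAP and 0.17 in cdSRCAP cells.

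The intron counts of Dnmt3b differed from the exon counts. They were 400 and 237 in wtSRCAP controls and 0 and 0 in wtSRCAP cells after IAA, where the exon counts were 4910 and 18304. In cdSRCAP cells there were 364 and 120 intron counts in controls and 80 and 200 after IAA. Taking 3 counts over the group as the limit that a count of 0 allows, the wtSRCAP IAA intron level was at least 173-fold lower than its control. It was at least 60.8-fold lower than in cdSRCAP cells after IAA. This was the 1 member called in intron counts for IAA in wtSRCAP cells (edgeR adjusted p = 0.032, beside 0.299% of 12702 genes called), and the call was lost when any 1 of these 4 wtSRCAP libraries was left out. The exon level of the same libraries did not follow, with a log2 fold change of 0.15 (edgeR adjusted p = 0.956). Whether the intron counts of 0 come from the cells or from how the column was made was not tested. Intron counts of Dnmt3b also differed widely within CGR8, with 41 and 1073 in the controls and 836 and 1354 after IAA. With CGR8 control replicate 1 alone as the reference, the intron log2 fold change was 3.96 and called, against 0.93 (adjusted p = 0.926) with both.

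Dnmt3l, the catalytically inactive cofactor, was at 660.7 and 526.7 CPM in CGR8 controls and 543.3 and 462.8 CPM after IAA, overlapping groups with a log2 fold change of -0.24 (SE 0.153, edgeR adjusted p = 0.656) and of -0.18 (SE 0.165) in intron counts. In SYAT it was at 222.5 and 319.5 CPM in controls, 252.5 and 377.6 at 2 h, 241.6 and 361.1 at 4 h, 241.1 and 606.9 at 6 h and 277.7 and 364.1 CPM at 8 h. The value at 6 h was set by replicate 2. The log2 fold change was 0.65 with both libraries (SE 0.389, edgeR adjusted p = 0.437), -0.17 without replicate 2 and 1.17 without replicate 1 (adjusted p = 0.0335). Sorted cells held 163 to 223 CPM of Dnmt3l, and the construct lines 242 to 512 CPM, with IAA estimates of 0.36 (SE 0.36) in wtSRCAP and 0.19 (SE 0.359) in cdSRCAP cells. None of these was called.

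Tet1, the TET gene with the highest level per length in every condition, was at 753.7 and 1092.5 CPM in CGR8 controls and 1079 and 1134 CPM after IAA. The groups overlapped, and the log2 fold change was 0.26 (SE 0.175, edgeR adjusted p = 0.67). Control replicate 1 was the low library: with it alone as the reference the estimate was 0.56 (adjusted p = 0.0141), so that 1 control decided the side of the threshold. In SYAT Tet1 lay between 689 and 1130 CPM, with log2 fold changes of 0.11, 0.20, -0.03 and 0.15 (SE 0.241 each), none called, and 0.10 at 6 h without replicate 2. Of the 7 exon estimates, that of Tet1 differed most between the G1 phases. It was at 413.9 and 447.1 CPM in EG1 and 519.2 and 503.6 CPM in LG1 controls, and after IAA at 373.6 and 467.7 in EG1 and 615.0 and 523.7 CPM in LG1. The groups did not overlap in either condition, and the log2 fold changes were 0.25 (SE 0.166) and 0.44 (SE 0.166). With the replicate block the second was 0.44 (edgeR adjusted p = 0.00931), under the fold that a call needed. At a looser threshold on the exon counts without the block, an unadjusted p under 0.05 and an absolute log2 fold change over 0.25, Tet1 was taken after IAA, as were 2.31% of all genes, and not in controls, where 1.44% were.

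In the construct lines Tet1 was at 1539.6 and 1191.8 CPM in wtSRCAP controls and 1814.6 and 1513.4 CPM in cdSRCAP controls, and these overlapped. After IAA it was at 1260.1 and 1282.8 CPM in wtSRCAP and 2184.8 and 1612.0 CPM in cdSRCAP cells, which did not overlap. The log2 fold change of cdSRCAP against wtSRCAP was 0.29 in controls (SE 0.246, edgeR adjusted p = 1) and 0.58 after IAA (SE 0.246, adjusted p = 0.951). With the block they were 0.29 (adjusted p = 0.49) and 0.56 (adjusted p = 0.0429), so only the second was called. That call was lost without wtSRCAP IAA replicate 1 (0.32) or cdSRCAP IAA replicate 1 (0.43). The change in response, cdSRCAP minus wtSRCAP, was 0.29 (SE 0.347, adjusted p = 1). Intron counts of Tet1 gave 0.42 in controls and 0.19 after IAA (edgeR adjusted p = 0.0607 and 0.313 with the block).

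Tet2, which oxidises 5-methylcytosine but lacks the CG-binding CXXC domain of Tet1 and Tet3, gave the largest exon estimates of the family. In CGR8, which carries no degron, it was at 131.4 and 205.8 CPM in controls and 253.5 and 286.0 CPM after 4 h of IAA. Both treated libraries lay above both controls, and the controls differed from each other by more than the treated libraries did. The log2 fold change was 0.68 (SE 0.203, edgeR adjusted p = 0.54), and DESeq2 gave the same fold with an adjusted p of 0.045. With the replicate block it was 0.71 (edgeR adjusted p = 0.00626), beside 2.47% of all genes called in that fit. Without the block the estimate was 1.04 with control replicate 1 alone as the reference, and 0.40 with control replicate 2 alone. The intron counts of Tet2 went from 278.9 and 300.9 to 386.5 and 387.8 CPM, a log2 fold change of 0.42 (SE 0.128, edgeR adjusted p = 0.916, beside 0.022% of 13634 genes called). CGR8 and SYAT cells were given the same IAA for 4 h, so the SYAT values at that time stand beside these.

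In SYAT cells Tet2 differed more between replicate numbers than between times. Replicate 1 held 41.0 CPM in the control, then 54.9 at 2 h, 67.6 at 4 h, 78.4 at 6 h and 67.3 CPM at 8 h. Replicate 2 held 87.2 CPM in the control, then 102.7, 126.5, 73.0 and 128.9 CPM. The labels do not tie the numbers to a shared culture. Same-numbered samples deviated together among the controls, 2, 4 and 8 h (correlations of 0.517 to 0.754), but less so with 6 h (-0.00602 to 0.295). Within a number the treated library was above its control in 7 of 8 cases, by 1.18 to 1.91 times, and the exception was replicate 2 at 6 h, with 0.837 of its control. Across both replicates the groups overlapped at every time. The log2 fold changes were 0.30, 0.60, 0.24 and 0.61 (SE 0.44 each), and the adjusted p of edgeR's test was 0.591 or more. Without replicate 2 at 6 h the estimate at that time was 0.29. With the replicate block the log2 fold changes at 4 and 8 h were 0.62 and 0.63 (edgeR adjusted p = 0.289 and 0.194). Without the 6 h libraries, a fit added after seeing the data, the block gave 0.63 and 0.64 (adjusted p = 0.000346 and 0.000148). That fit called Tet2 at both times, beside 1249 and 2230 of 19290 genes. The intron column of Tet2 was listed at 0 in all 10 SYAT libraries, although the exon column held 811 to 3138 counts, so it gives no second reading there.

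**Figure D3:**
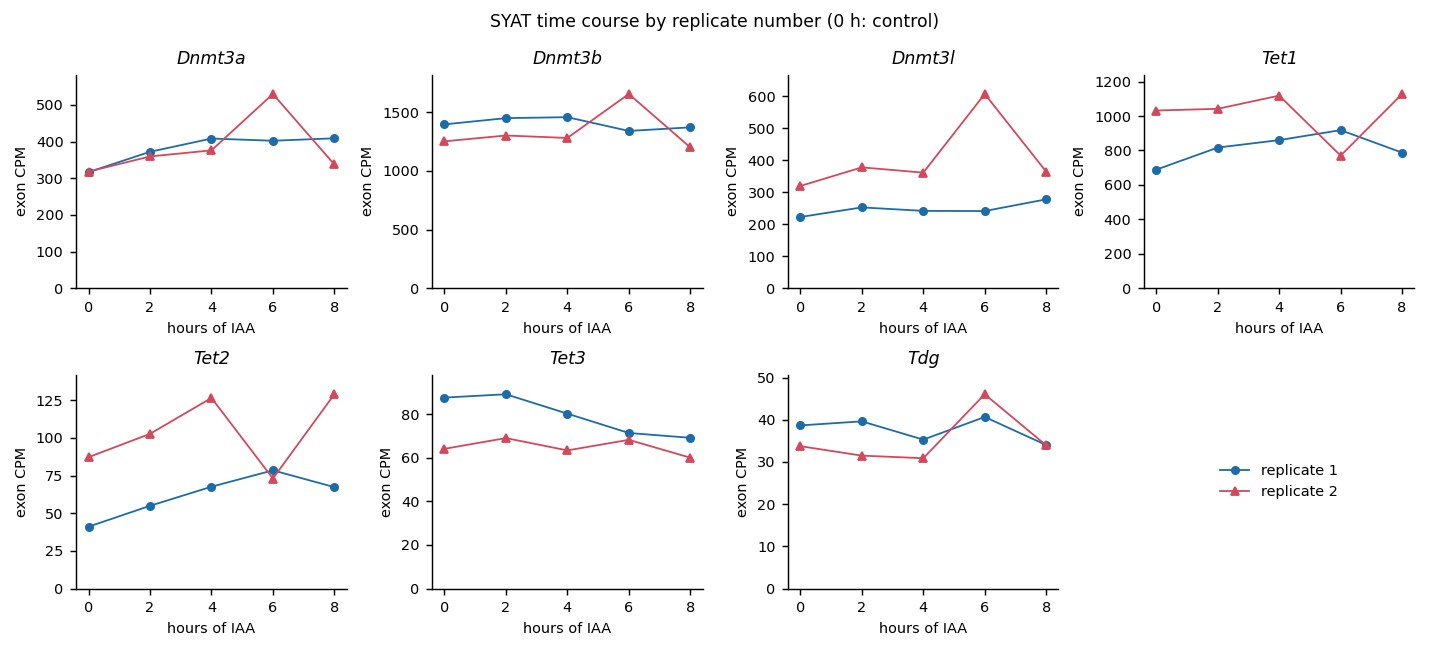
Exon level (CPM, linear axis from 0) of the 7 genes against hours of IAA in SYAT cells, with 0 h the control and 1 line for each replicate number. Dnmt3a, Dnmt3l, Tet1 and Tet2 lie above their control of the same number at 2, 4 and 8 h, and at 6 h replicate 2 departs from its neighbours in several panels, upwards for Dnmt3a, Dnmt3b and Dnmt3l and downwards for Tet1 and Tet2.

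The cdSRCAP and wtSRCAP lines differed most in Tet2. It was at 148.5 and 126.6 CPM in wtSRCAP controls and 237.2 and 243.6 CPM in cdSRCAP controls, ratios of 1.6 and 1.92 within a replicate number. After IAA it was at 128.5 and 193.6 CPM in wtSRCAP and 302.9 and 320.1 CPM in cdSRCAP cells, ratios of 2.36 and 1.65. All 4 cdSRCAP libraries lay above all 4 wtSRCAP libraries. The log2 fold changes were 0.81 (SE 0.236, edgeR adjusted p = 1) in controls and 0.95 (SE 0.237, adjusted p = 0.951) after IAA, which without the block did not pass. With the replicate block they were 0.80 (adjusted p = 0.00927) and 0.96 (adjusted p = 0.00241), and both passed. The control call was lost without cdSRCAP control replicate 1 (0.75) or wtSRCAP control replicate 2 (0.57). The call after IAA was lost without cdSRCAP IAA replicate 1 (0.93), and without wtSRCAP IAA replicate 1 it held at 0.61 (adjusted p = 0.00754). Intron counts of Tet2 gave 0.78 in controls and 0.66 after IAA (with the block adjusted p = 0.0343 and 0.0462, beside 1.07 and 1.89% of all genes called).

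The difference was there with and without IAA. IAA itself gave a log2 fold change of 0.23 (SE 0.235) for Tet2 in wtSRCAP cells and 0.37 (SE 0.235) in cdSRCAP cells, neither called, and the 2 responses differed by 0.15 (SE 0.332, edgeR adjusted p = 1). Pluripotency markers differed in the same direction. The 8 mESC markers summed to 2500 to 2660 CPM in wtSRCAP controls and 3010 to 3710 CPM in cdSRCAP controls, and to 3120 to 3230 against 3750 to 4220 CPM after IAA. In CGR8 they summed to 3210 to 3520 CPM in controls and 3740 to 3870 CPM after IAA. The 4 formative markers summed to 96.5 to 105 CPM in CGR8 controls and 118 to 119 CPM after IAA, with a median log2 fold change of 0.63 against -0.000302 over all genes. All 4 had an unadjusted p under 0.05, 3 of them with estimates above 0, and edgeR's test called 0. In the construct lines they summed to 134 to 137 CPM in wtSRCAP and 106 to 129 CPM in cdSRCAP controls, and to 146 to 147 against 114 to 148 CPM after IAA. The part of either marker set in the Tet2 values was not tested.

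**Figure D4:**
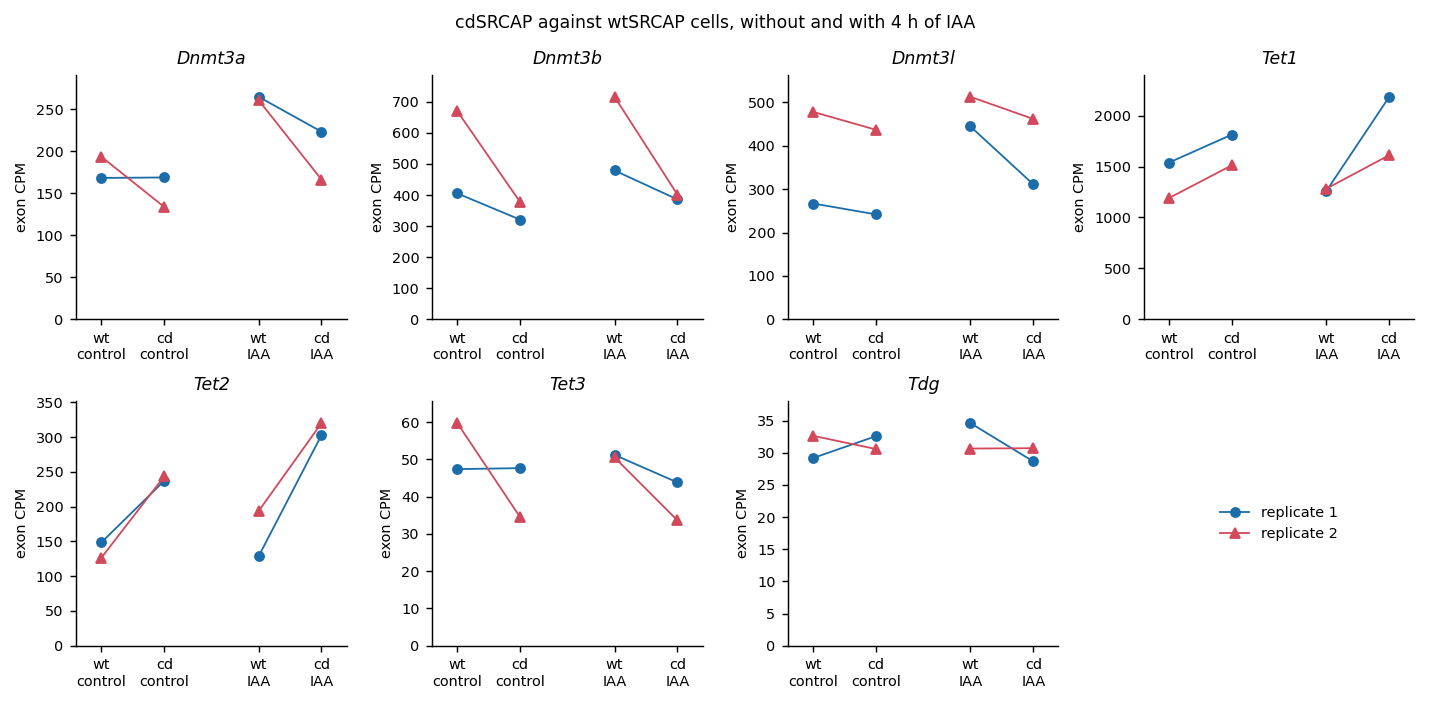
Exon level (CPM, linear axis from 0) of the 7 genes in wtSRCAP (wt) and cdSRCAP (cd) cells, as controls and after 4 h of IAA; each line joins the libraries with 1 replicate number. Tet2 is higher in cd than in wt on all 4 lines (ratios 1.6 to 2.36) and Dnmt3b is lower on all 4 (0.561 to 0.806).

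**Figure D5:**
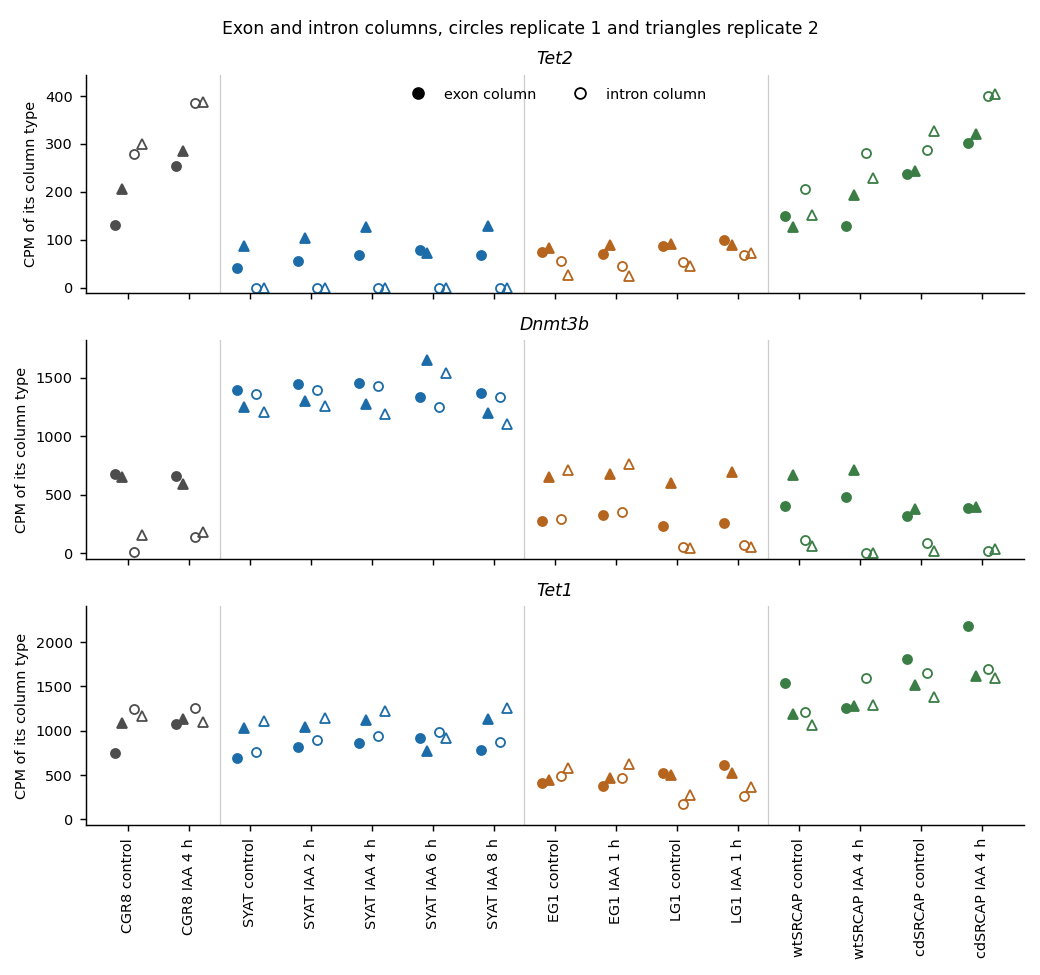
Exon (filled) and intron (open) levels of Tet2, Dnmt3b and Tet1 in all 30 libraries, each in CPM of its own column type on a linear axis. Tet2 has no intron counts in the 10 SYAT libraries, and Dnmt3b has none in wtSRCAP cells after IAA.

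In sorted cells, where SRCAP had been degraded for 1 h, Tet2 lay between 69.3 and 98.9 CPM. EG1 controls had 74.1 and 83.1 CPM and EG1 cells after IAA 69.3 and 89.6 CPM, overlapping groups with a log2 fold change of 0.02 (SE 0.158). LG1 controls had 87.5 and 90.4 CPM and LG1 cells after IAA 98.9 and 89.8 CPM, with 0.09 (SE 0.158).

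Tet3, the TET enzyme best known from the zygote and from neurons, was the lowest member per length in CGR8 and in both construct lines. It was at 37.3 and 45.1 CPM in CGR8 controls and 33.7 and 30.5 CPM after IAA, groups that did not overlap, with a log2 fold change of -0.36 (SE 0.159, edgeR adjusted p = 0.544). The intron estimate was -0.42 (SE 0.183, adjusted p = 0.925). In SYAT replicate 1 went from 87.6 CPM in the control to 89.1, 80.2, 71.4 and 69.2 CPM at 2, 4, 6 and 8 h, and replicate 2 from 64.1 to 69.0, 63.4, 68.2 and 60.0 CPM. The log2 fold changes were 0.06, -0.08, -0.12 and -0.23 (SE 0.194 each, and -0.08 at 6 h without replicate 2), and the groups overlapped at every time. Sorted cells held 90.8 to 108 CPM in all 8 libraries, the narrowest spread of the family in that table (1.18-fold from lowest to highest). In the construct lines Tet3 was at 47.4 and 59.8 CPM in wtSRCAP and 47.7 and 34.5 CPM in cdSRCAP controls, with a log2 fold change of -0.39 (SE 0.248, edgeR adjusted p = 1, 0.425 with the block). After IAA it was at 51.2 and 50.5 against 43.8 and 33.6 CPM, with -0.39 (SE 0.248, adjusted p = 0.956, 0.312 with the block).

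Tdg, the glycosylase that acts after the TET enzymes, kept to 28.7 to 52.2 CPM over all 30 libraries. It was at 52.2 and 44.0 CPM in CGR8 controls and 42.4 and 38.9 CPM after IAA, which did not overlap, with a log2 fold change of -0.24 (SE 0.152, edgeR adjusted p = 0.654). In SYAT the log2 fold changes were -0.03, -0.13, 0.26 and -0.09 (SE 0.164 each, and 0.17 at 6 h without replicate 2), and in the construct lines IAA gave 0.08 (SE 0.207) and -0.09 (SE 0.206). The intron estimate in CGR8 was -0.23 (SE 0.178). The exon values of cdSRCAP against wtSRCAP were 0.03 (SE 0.206) in controls and -0.14 (SE 0.207) after IAA. No comparison called Tdg in exon counts.

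For LG1 against EG1 the intron columns called 5 of the 7 members lower in controls, beside 32.6% of all 17441 genes called lower, and 4 lower after IAA, beside 33.3%. As the EG1 intron column counts single-exon genes and the LG1 column does not, these calls cannot be told apart from a difference between the columns. With the exon counts taken off the EG1 intron counts first, 7 of these 9 estimates changed sign. That subtraction was made in EG1 only and allowed no negative counts, so it lowers EG1 by design. The sign changes therefore do not show what the columns hold.

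The rest of the methylation machinery was followed through 68 genes in 6 lists: maintenance of methylation, readers, base excision repair, methyl donors and cofactors, targeting, and germline genes known to be silenced by promoter methylation. The list names are headings, and not every gene in a list carries out the named step. Of the 68 genes, 66 or 67 passed the filter on low counts in each table. EdgeR's test without the block called 0 of them in any of the 15 comparisons, with 0 to 12 at an unadjusted p under 0.05. DESeq2 called the reader Mbd1 at 6 h, and Mbd1 and the glycosylase Neil3 at 8 h, of IAA in SYAT, and none elsewhere.

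In CGR8, 11 of the 67 genes had an unadjusted p under 0.05, beside 9.16% of all genes. Of 13 base excision repair genes, which act downstream of TDG, 1 had an estimate above 0, with a median log2 fold change of -0.173 against -0.000302 over all genes, and 3 had an unadjusted p under 0.05. The 2 with the smallest p were Neil3 (-0.64, edgeR adjusted p = 0.54) and the DNA ligase Lig1 (-0.37, adjusted p = 0.543). In the targeting list of 10 genes the smallest p belonged to Prdm14 (0.59, edgeR adjusted p = 0.54) and Trdmt1 (0.61, adjusted p = 0.54). Prdm14 is known to repress Dnmt3 genes in naive mESC. Of 11 germline genes tested the smallest p belonged to Hormad1 (1.04, adjusted p = 0.54) and Sycp1 (0.74, adjusted p = 0.54). Both are meiotic chromosome axis or synapsis genes.

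Between cdSRCAP and wtSRCAP cells the 6 genes of the maintenance list had median log2 fold changes of -0.0567 in controls and -0.0833 after IAA. Dppa3, an inhibitor of UHRF1, had the smallest p in both, with -1.57 (edgeR adjusted p = 1) and -1.38 (adjusted p = 0.951), and was short of the threshold with the block (adjusted p = 0.0595 and 0.0713). Cdca7 came next, with -0.19 and -0.16. In the list of 16 readers Zfp57, which protects imprints, was called higher with the block in both conditions. Its log2 fold changes were 0.67 (edgeR adjusted p = 0.0133) and 0.91 (adjusted p = 0.00108). The second gene of that list by p was Kdm2a in controls (-0.15) and Mbd1 after IAA (-0.61). Of the 10 targeting genes Nsd2, which places H3K36 dimethylation, was called lower with the block, with -0.65 (adjusted p = 0.0393) and -0.71 (adjusted p = 0.0174), and the second by p was Prdm14 in controls (0.69) and Ehmt2 after IAA (-0.39). Of the 8 mESC markers, Klf4 was called higher with the block in controls (0.84, adjusted p = 0.00529), and after IAA Klf4 (0.71, adjusted p = 0.0181), Nanog (0.76, adjusted p = 0.0135) and Zfp42 (0.53, adjusted p = 0.0453) were. These counts stand beside 0.91 and 1.41% of all genes called in that fit.

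Across the 30 libraries, with the mean of each table taken off, the genes most like a member in log2 CPM among 17481 genes tested in every table were Rbpj (Pearson r = 0.925) and Kat6b (0.896) for Tet2 and Bclaf3 (0.863) and Zfp532 (0.852) for Tet1. For the writers they were Usf1 (0.938) and Cdv3 (0.899) for Dnmt3a, Pim2 (0.973) and Xpot (0.95) for Dnmt3b, and Hsd17b14 (0.904) and Zbtb45 (0.896) for Dnmt3l. For Tet3 they were Kif1a (0.829) and Armcx4 (0.797), and for Tdg Wdr4 (0.878) and Lysmd2 (0.847). Among the members themselves Tet1 and Tet2 went together (r = 0.839), as did Dnmt3a and Dnmt3b (0.775), and Tet2 and Tet3 went opposite ways (-0.742). These are descriptions over 30 points that share library depth, replicate number and clone within each table.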

How the data were processed

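Nuclear RNA-seq of mESC was measured in 30 libraries. The authors aligned reads to mm10 with STAR and deposited raw counts per gene from featureCounts (GENCODE vM25), with 1 exon column and 1 intron column (gene body without exons) per library; SAMtools 1.10 and Picard are also named in the submitters' notes, other versions and the strand setting are not given in the sources used here. Each table of counts was fitted on its own, with R 4.3.3 and edgeR 4.0.16: filterByExpr (minimum count 10, minimum total 15), TMM factors, a quasi-likelihood fit with 1 coefficient per condition, and Benjamini-Hochberg adjustment over all genes tested. CPM were scaled by TMM and RPKM used the union exon length of GENCODE vM21, in which 55141 of 55401 gene IDs and all 7 members matched. Promoter windows came from RefSeq (GRCm38.p6); all 7 members matched. The precision of the counts was set by exon totals of 12236493 to 60214521 a library. P-values rest on a spread estimated over all conditions of a table of counts in 1 fit. Each condition has 2 libraries, which the study calls biological duplicates. In SYAT the spread in every comparison therefore includes replicate 2 at 6 h. Columns with the authors' own fold changes and p-values were not used.

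Groups came from the labels. In sorted and SRCAP construct cells, same-numbered samples deviated together: the correlation of their deviations from group means was 0.722 to 0.861 and 0.613 to 0.722 over 6 pairs each in exon counts, and the replicate block is given there. Alternatives were RLE factors, DESeq2 1.42.0, no filter on low counts, the replicate block, only the groups compared, and each library left out. Another was the intron column minus the exon column in SYAT and EG1, with no negative counts allowed. The block without the 6 h libraries and the block with libraries left out were added after seeing the data. Scripts were tested on simulated data. The members and lists were chosen with earlier results of these data known. Named were the 7 members, and of other lists each gene called and, per list and comparison described, the 2 genes with the smallest p.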

Additional observations from a re-analysis of the deposited data

How the results depend on the processing

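The exon log2 fold changes of the members, 105 over the 15 comparisons, moved by less than the replicate SD with RLE factors, DESeq2, no filter on low counts and the replicate block, and 103, 102, 102 and 103 of them kept their sign. The count of members called, 0 in every exon comparison, was 1 in CGR8 (Tet2) with DESeq2, with no filter on low counts and with the replicate block (log2 fold change 0.71, adjusted p = 0.00626), and 0 to 2 with 1 library left out. CGR8 has 1 pair of numbers, with a correlation of 0.347. The SYAT pairs that include 6 h lay between -0.00602 and 0.295, and those among the controls, 2, 4 and 8 h between 0.517 and 0.754. As not every SYAT pair was high, the numbers were not taken as pairs in these 2 tables. The block called 500 genes in CGR8 against 2. In SYAT it called 0, 76, 823 and 634 at 2, 4, 6 and 8 h against 0, 0, 13 and 1. At 6 h in SYAT 2 members were called with no filter (Dnmt3a and Dnmt3l) and 0 to 2 with 1 library left out, and in introns 1 with DESeq2 and 0 to 1 with 1 library left out. With the block and without the 6 h libraries 1 member, Tet2, was called at 4 h (0.63, adjusted p = 0.000346) and 1 at 8 h (0.64, adjusted p = 0.000148). For cdSRCAP against wtSRCAP the block called 1 member in controls and 2 after IAA, and 0 to 1 and 0 to 3 with 1 library left out; in introns DESeq2, no filter and the block called 1, 1 and 1 in controls and 1, 2 and 2 after IAA. Other intron counts that moved by over 1.5 times, or over a range with 1 library left out, were 1 with no filter in CGR8 (0 to 1 with 1 library left out), 1 with no filter for IAA in cdSRCAP, 1 with DESeq2 and 1 with no filter for the difference of the IAA responses, 0 to 0 with 1 library left out for IAA in wtSRCAP, and 3 with the exon column taken off for LG1 against EG1 in controls, with 3 to 4 and, after IAA, 3 to 5 when 1 library was left out. After IAA that count was also 5 with DESeq2 and 5 with the block, where Tet2 was called higher (1.01 and 1.11, adjusted p = 0.0278 and 0.0176), and 3 with the exon column taken off. Taking the exon column off turned the LG1 against EG1 intron values. In controls they became 12.48 for Dnmt3a, 0.47 for Dnmt3b and 12.18 for Dnmt3l. After IAA they became 12.64, 0.54 and 12.40, and 0.20 for Tet1. The subtraction was made in EG1 only and allowed no negative counts, so it lowers EG1 by design.

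Over all genes DESeq2, no filter and the block called 122, 386 and 500 in CGR8. In SYAT DESeq2 called 8, 123, 571 and 380 genes from 2 to 8 h, no filter 8, 88, 885 and 448, and the block without the 6 h libraries 358, 1249 and 2230 at 2, 4 and 8 h. The block changed no other call of a member in exon counts. In sorted cells the block called 2 and 1 genes for IAA in EG1 and LG1 and 152 and 213 for LG1 against EG1, and no filter 3, 9, 70 and 94. In the construct lines the block called 612 and 345 for IAA in wtSRCAP and cdSRCAP and 174 and 269 for cdSRCAP against wtSRCAP, no filter 20, 10, 40 and 44, and DESeq2 14, 7, 22 and 3. The cause of these differences was not tested.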

Other observations

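Of the 6 genes in the maintenance list, the replicate block called 1 higher in LG1 than in EG1 in controls and 2 after IAA. EdgeR's test without the block called 0 (1 at an unadjusted p under 0.05 in each). Uhrf1, which brings DNMT1 to newly replicated DNA, was called in both conditions, with log2 fold changes of 0.57 in controls (edgeR adjusted p = 2.35e-05) and 0.65 after IAA (adjusted p = 4.16e-06). Dnmt1, the maintenance methyltransferase, was called after IAA (0.54, adjusted p = 2.05e-05) and in controls had 0.46 (adjusted p = 0.000129), under the fold a call needed. Without the block none of these passed (adjusted p = 1 in edgeR's test), and the block called 0.723 and 1.01% of all genes in these comparisons.

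At 8 h of IAA in SYAT the smallest p among readers and among base excision genes belonged to Mbd1 (log2 fold change -0.92, edgeR adjusted p = 0.0717) and Neil3 (-1.33, adjusted p = 0.0811), and DESeq2 called both. For IAA in wtSRCAP cells the block called Mbd5 (-1.03, edgeR adjusted p = 0.0248) and Polb (-0.89, adjusted p = 0.0452) lower and Kdm2b (0.59, adjusted p = 0.0271) and Prdm14 (0.94, adjusted p = 0.0459) higher, beside 3.2% of all genes called. These values were picked out after they were seen.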
